A study of Mus musculus with 6 samples.

Results

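Fibroblast growth factors (FGFs) and hepatocyte growth factor (HGF) are secreted signals that stroma and epithelium of the mammary gland exchange through receptor tyrosine kinases. The genes described here are 5 ligands (Fgf1, Fgf2, Fgf7, Fgf10 and Hgf) and 5 receptors (Fgfr1, Fgfr2, Fgfr3, Fgfr4 and Met), 10 of the 18193 genes on the array. They were chosen by name, with earlier results of these data known. Each was measured by probe sets annotated to it alone, 25 in all, and is represented by whichever of its sets was brightest on average across the 6 arrays. Messenger RNA came from whole mammary glands of untreated virgin females of the FVB/N background, 4 months old, in 2 groups. The Cav-3KO group held 3 glands of Caveolin-3 knockout mice and the WT group 3 glands of wild-type mice. Caveolin-3 is the muscle form of caveolin, a protein that shapes small pits of the cell membrane called caveolae. How the knockout allele was made, and whether the glands came from separate mice, is not given in the sources used here, so p-values measure the spread between these samples, which may be technical.

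FGF ligands bind their receptors together with heparan sulphate, a sulphated sugar chain of the cell surface, and the receptors then signal through adaptors to the RAS and ERK kinases. FGF7 and FGF10 come from mesenchymal cells and act on the epithelial splice form of FGFR2. FGF10 is needed for most, but not all, mammary buds to form in the mouse embryo. HGF is made by stroma as an inactive precursor that is cut by serine proteases, and its receptor MET lies on epithelial cells, where it drives growth and branching of ducts.

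Values are log2 RMA values, 1 per probe set and array, and differences are Cav-3KO minus WT on that scale, tested with limma and adjusted by the Benjamini-Hochberg method over 45037 probe sets with a threshold of 0.05. Array medians lay between 5.77 and 5.80. Correlations over all probe sets were 0.990 to 0.995 within a genotype and 0.977 to 0.987 between genotypes. The disrupted gene, Cav3, had values of 4.76, 4.83 and 4.72 in Cav-3KO glands and 4.79, 5.02 and 4.74 in WT glands (difference −0.08 ± 0.10 SE, limma adjusted p = 0.679). The Cav3 probe set was dim in both groups, with a mean of 4.81 over the 6 arrays, at percentile 36.5 of all sets. Whether it lies in the removed part is not given in the sources used here. This reading did not check the genotypes, which are taken as labelled. Markers that define the labelled tissue were bright on every array, with list means of at least 8.55 for luminal epithelium and 10.68 for white adipocytes. The number of arrays, 3 per group, limits the precision.

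Of the 10 genes, 2 were lower in Cav-3KO glands and 0 were higher (limma, adjusted p). Over the 25 probe sets 3 were lower, against 6.57% of all sets. Over all genes 8.51% were lower and 7.65% higher, or 16.2% in either direction, so 2 of 10 is close to the share among all genes. The 2 were the ligand gene Fgf10 and the receptor gene Fgfr1. An unadjusted limma p under 0.05 was reached by 6 of the 10, against 33.6% of all genes. By sign 8 genes lay below WT and 2 above, with a median log2 difference of −0.36, against −0.01 over all genes. The groups did not overlap for 4 of the 10 genes, 3 lower and 1 higher in Cav-3KO, against 38.3% of all genes (19.8% lower and 18.5% higher). In whole-gland RNA, fewer cells of a type and less RNA per cell cannot be told apart.

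**Figure D1:**
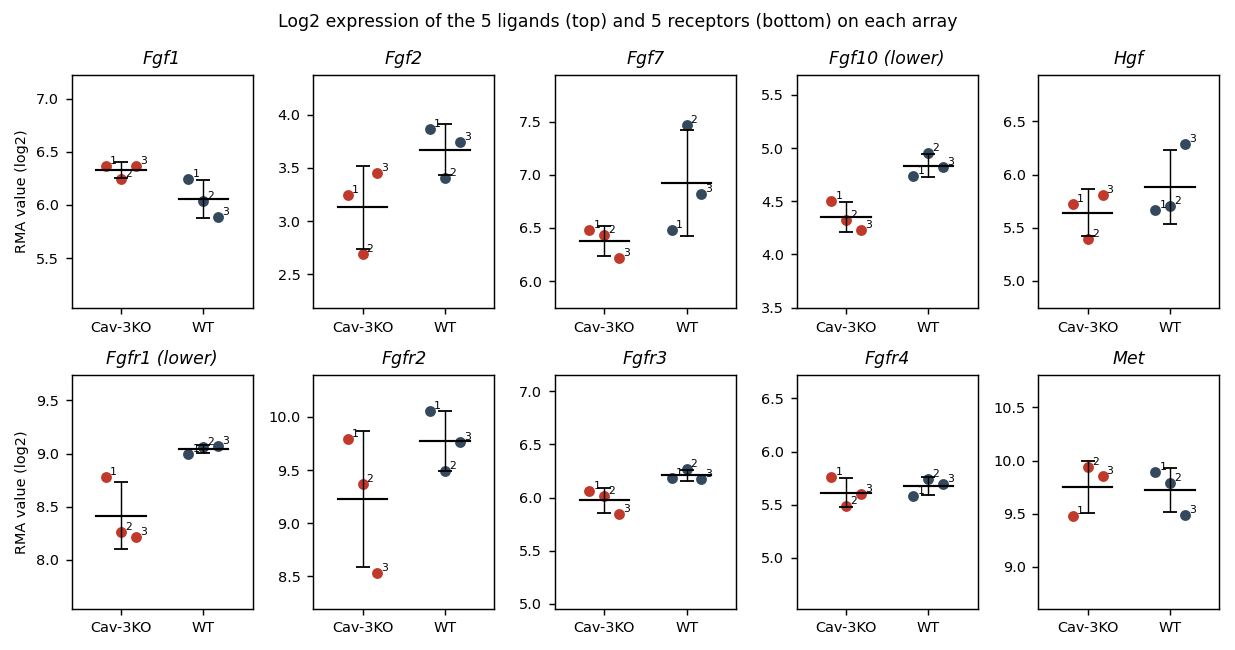
RMA values (log2, vertical axis) of the 5 ligand genes (top row) and 5 receptor genes (bottom row) in 3 Cav-3KO glands (red) and 3 WT glands (dark blue), with replicate numbers beside the points, horizontal bars for means and error bars for 1 SD. Every panel spans the same log2 range. The Cav-3KO points lie below all WT points for Fgf10, Fgfr1 and Fgfr3, and above them for Fgf1.

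The promoter of Fgf10, the ligand gene that passed the threshold, is shown beside that of Fgf7, which encodes the other FGFR2 ligand of mesenchymal cells. Sequences are the 250 bases before the start of the gene from RefSeq, build GRCm38.p6, in which 8 of the 10 genes had an entry. Capitals mark the GC box, searched as GGGCGG or CCGCCC, the letters that Sp1 proteins bind. Fgf10 (chr13:118714449-118714698, plus strand) held 1 such box, at −199 to −194 relative to the start, and Fgf7 (chr2:126034408-126034657, plus strand) held none. Among 32851 promoters of the same length 32.7% held the box. Neither promoter held TATAAA on either strand (12.4% of promoters did) or TTCNNNGAA, the letters that STAT factors bind (7.02%).
Fgf10: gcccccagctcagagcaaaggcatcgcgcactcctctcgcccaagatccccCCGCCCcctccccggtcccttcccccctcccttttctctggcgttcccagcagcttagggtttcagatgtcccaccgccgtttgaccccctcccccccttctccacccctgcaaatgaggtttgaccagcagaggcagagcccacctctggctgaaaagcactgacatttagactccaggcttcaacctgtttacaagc
Fgf7: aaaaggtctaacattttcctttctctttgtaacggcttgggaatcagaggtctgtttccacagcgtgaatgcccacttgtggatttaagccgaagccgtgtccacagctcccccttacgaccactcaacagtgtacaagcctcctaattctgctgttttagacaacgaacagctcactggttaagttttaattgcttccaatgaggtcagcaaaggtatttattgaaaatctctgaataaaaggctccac

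Fgf10 (Entrez 14165) had log2 values of 4.50, 4.32 and 4.23 in Cav-3KO glands, against 4.73, 4.95 and 4.82 in WT glands. All 3 Cav-3KO values lay below all 3 WT values. Means were 4.35 ± 0.14 in Cav-3KO and 4.83 ± 0.11 in WT (SD, n = 3 each). The log2 difference was −0.48 ± 0.11 (SE, 95% interval −0.73 to −0.24), 1.40-fold lower, with an adjusted p of 0.0257 by limma. By a two-sided exact permutation test p was 0.1, the smallest that 3 against 3 allows. Fgf10 has only 1 probe set here, and it is dim: 12 of 13 probe sets for Y-linked genes, which stand for background in females, read 1.90 to 4.61, a range that holds the Cav-3KO values but not the WT values. The other Y-linked set, for Sry, read 5.96 to 6.36, above all 6 Fgf10 values. Of the 12, only the Zfy2 set (4.24 to 4.61) came up to Fgf10 values, and the next brightest, for Kdm5d, read at most 3.57. These sets therefore do not settle which Fgf10 values stand above background. The call was lost without Cav-3KO 3 (adjusted p = 0.0910), WT 2 (0.0830) or WT 3 (0.0774) and when the mean of the skeletal muscle markers was added as a covariate (0.0539), here called the muscle covariate.

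Fgf7 (Entrez 14178) read 6.48, 6.44 and 6.22 in Cav-3KO glands, against 6.48, 7.46 and 6.82 in WT glands. WT 2 was the highest, and WT 1 was level with the highest Cav-3KO gland. The log2 difference of −0.54 ± 0.23 (SE, 95% interval −1.07 to −0.02) did not pass (limma adjusted p = 0.168), and it was −0.27 without WT 2. Its second, dimmer probe set gave −0.13 ± 0.09.

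Fgf1 (Entrez 14164), a ligand that binds all FGF receptors, was the member whose Cav-3KO values all lay above WT. It read 6.37, 6.24 and 6.37 in Cav-3KO glands, against 6.24, 6.04 and 5.88 in WT glands, and the lowest Cav-3KO gland was almost level with WT 1. The difference was 0.27 ± 0.11 (SE, 95% interval 0.01 to 0.53, limma adjusted p = 0.158). The other 2 probe sets gave 0.06 and 0.04, with overlapping groups.

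Fgf2 (Entrez 14173), the basic FGF that extracellular matrix stores, read 3.25, 2.69 and 3.45 in Cav-3KO glands, against 3.87, 3.40 and 3.74 in WT glands. The groups overlapped at Cav-3KO 3 and WT 2. The difference was −0.54 ± 0.20 (SE, 95% interval −1.02 to −0.07, limma adjusted p = 0.131), and −0.32 without Cav-3KO 2. All 6 values lay within the range of the 12 Y-linked sets, although only the Zfy2 set reached those of WT 1 and WT 3.

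Hgf (Entrez 15234) read 5.72, 5.40 and 5.81 in Cav-3KO glands, against 5.66, 5.70 and 6.29 in WT glands. The groups overlapped, and WT 3 stood highest. The log2 difference was −0.24 ± 0.19 (SE, 95% interval −0.67 to 0.19, limma adjusted p = 0.463), and −0.04 without WT 3. Cav-3KO 2 was the lowest gland on all 3 Hgf probe sets, whose differences lay between −0.24 and −0.19.

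Among the receptors, Fgfr1 (Entrez 14182), a receptor found largely in mesenchymal tissue, had log2 values of 8.78, 8.26 and 8.21 in Cav-3KO glands, against 9.00, 9.06 and 9.07 in WT glands. All Cav-3KO values were below all WT values, and Cav-3KO 1 was nearest to WT. Means were 8.42 ± 0.31 in Cav-3KO and 9.04 ± 0.04 in WT (SD, n = 3 each). The log2 difference was −0.63 ± 0.15 (SE, 95% interval −0.98 to −0.28), 1.55-fold lower (limma adjusted p = 0.0350, exact permutation p = 0.1). A second Fgfr1 probe set, reading 6.54, 6.51 and 6.46 in Cav-3KO glands against 6.89, 6.96 and 6.94 in WT glands, also passed, with a difference of −0.43 ± 0.08 (limma adjusted p = 0.0152). The remaining set gave −0.29 ± 0.11 (0.136) with overlapping groups, so the 3 sets had the same sign. On the brightest set the call was lost without Cav-3KO 2 (adjusted p = 0.0715), Cav-3KO 3 (0.117), WT 1 (0.0827), WT 2 (0.0957) or WT 3 (0.106). The differences were then −0.55, −0.53, −0.65, −0.62 and −0.62, in that order. Without Cav-3KO 1 the difference was −0.81 and the call was kept (limma adjusted p = 0.00594).

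Fgfr2 (Entrez 14183), the receptor for FGF7 and FGF10, varied most within the knockout group. It read 9.80, 9.37 and 8.54 in Cav-3KO glands, against 10.06, 9.49 and 9.77 in WT glands. Cav-3KO 1 lay inside the WT range, while the other two glands lay below it. The difference was −0.54 ± 0.30 (SE, 95% interval −1.23 to 0.15, limma adjusted p = 0.293), and −0.19 without Cav-3KO 3. Its other probe sets ordered the knockout glands the same way, 6.62, 5.99 and 5.55 on one and 5.08, 4.61 and 4.34 on the other, and gave differences of −0.53 and −0.31. Which splice form of Fgfr2 each set reads was not tested.

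Fgfr3 (Entrez 14184) read 6.06, 6.02 and 5.84 in Cav-3KO glands, against 6.18, 6.27 and 6.18 in WT glands. The groups did not overlap, but the difference was small, −0.24 ± 0.09 (SE, 95% interval −0.45 to −0.02, limma adjusted p = 0.146). The second set gave −0.08 ± 0.18, with overlapping groups.

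Fgfr4 (Entrez 14186) read 5.76, 5.49 and 5.60 in Cav-3KO glands, against 5.58, 5.74 and 5.70 in WT glands. The values were interleaved, and the difference of −0.06 ± 0.10 (SE, limma adjusted p = 0.774) had a 95% interval from −0.29 to 0.18. The other 4 of its 5 sets had positive differences, up to 0.18, so its sign depended on the set.

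Met (Entrez 17295), the HGF receptor, read 9.48, 9.94 and 9.85 in Cav-3KO glands, against 9.89, 9.79 and 9.49 in WT glands. The ranges almost coincided, and the difference was 0.03 ± 0.15 (SE, limma adjusted p = 0.923) with a 95% interval from −0.32 to 0.39. Its dimmer set gave 0.32 ± 0.17 (0.278). The sign of the brighter set turned without Cav-3KO 2 (−0.06), Cav-3KO 3 (−0.015) or WT 3 (−0.084).

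**Figure D2:**
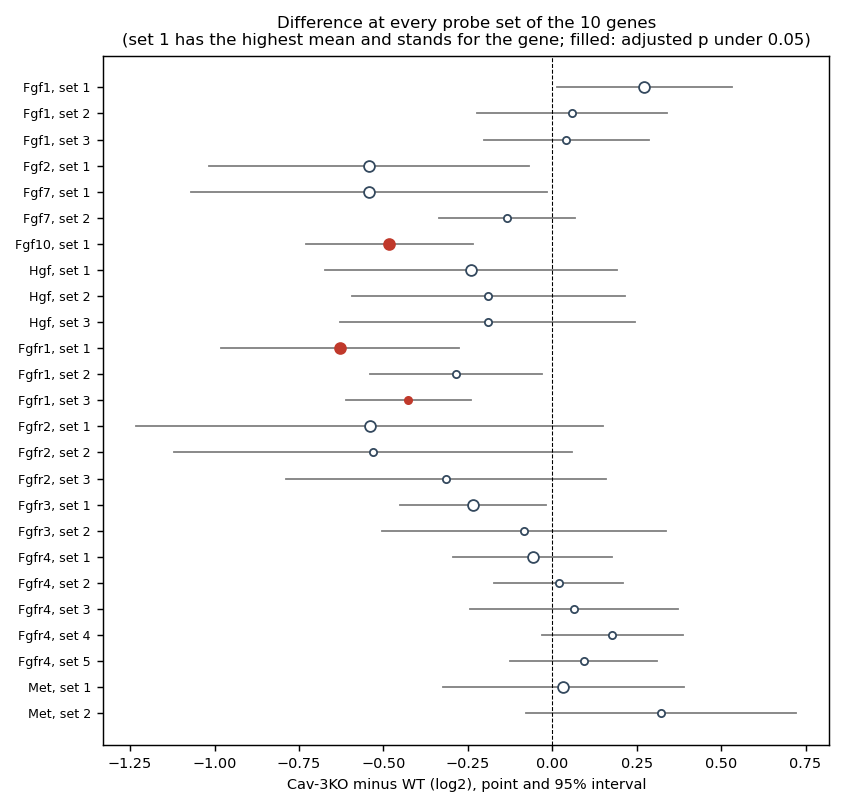
Log2 difference, Cav-3KO minus WT (horizontal axis), with its 95% interval at each of the 25 probe sets of the 10 genes (rows), where set 1 has the highest mean and filled red points had an adjusted p under 0.05. The 3 filled points are the Fgf10 set and 2 of the 3 Fgfr1 sets, and the 3 Fgfr2 sets all lie below 0 with intervals that cross it.

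Profiles over the 6 arrays, each centred on its own mean, were compared for the 2 members with the smallest p. The genes with the smallest root-mean-square distance from Fgf10 were Capn2, a calpain protease (0.027 on the log2 scale), Pcmtd1 (0.038) and 9330102E08Rik (0.040). For Fgfr1 they were Twist1, a mesenchymal transcription factor (0.050), Adam33, a metalloprotease of mesenchymal cells (0.055), and Mcpt4, a mast cell protease (0.066). Within 2 times the smallest distance lay 12 genes for Fgf10 and 25 for Fgfr1. The distances describe likeness over 6 arrays only, and a shared role of these genes was not tested.

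Marker genes of the gland's cell types moved with genotype too. Luminal epithelial markers were higher in 8 of 10 and lower in 0 (limma, adjusted p), with a list mean of 9.82 to 10.12 in Cav-3KO glands against 8.55 to 9.11 in WT glands. Basal markers were higher in 6 of 8, at 9.38 to 9.59 in Cav-3KO against 8.70 to 8.80 in WT. White adipocyte markers were lower in 5 of 8, at 10.68 to 11.06 in Cav-3KO against 11.43 to 11.71 in WT, and brown adipocyte markers in 4 of 6, at 6.98 to 7.07 against 8.28 to 9.48. Fibroblast markers were lower in 2 of 10 (Dpt and Pi16), and their list means overlapped, at 11.23 to 11.71 in Cav-3KO and 11.42 to 11.63 in WT. The fibroblast markers did not share a sign: Col1a1 differed by 0.73 ± 0.30 (SE, adjusted p = 0.159) and Pdgfra by −0.26 ± 0.15 (0.306). Endothelial markers were lower in 2 of 8, macrophage markers in 1 of 9 and skeletal muscle markers in 0 of 9. Over all genes 8.51% were lower and 7.65% higher. By sign 8 of 9 macrophage markers lay below WT. Their list mean was 9.54 to 9.63 in Cav-3KO against 9.64 to 9.96 in WT, without overlap. The endothelial list means overlapped, at 8.08 to 8.33 in Cav-3KO and 8.31 to 8.48 in WT. The muscle list mean ran from 5.88 to 7.93 in Cav-3KO and 6.41 to 9.55 in WT. No marker stood at 0, since RMA gives each set a value. The part of these shifts in the Fgf10 and Fgfr1 results was not tested.

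**Figure D3:**
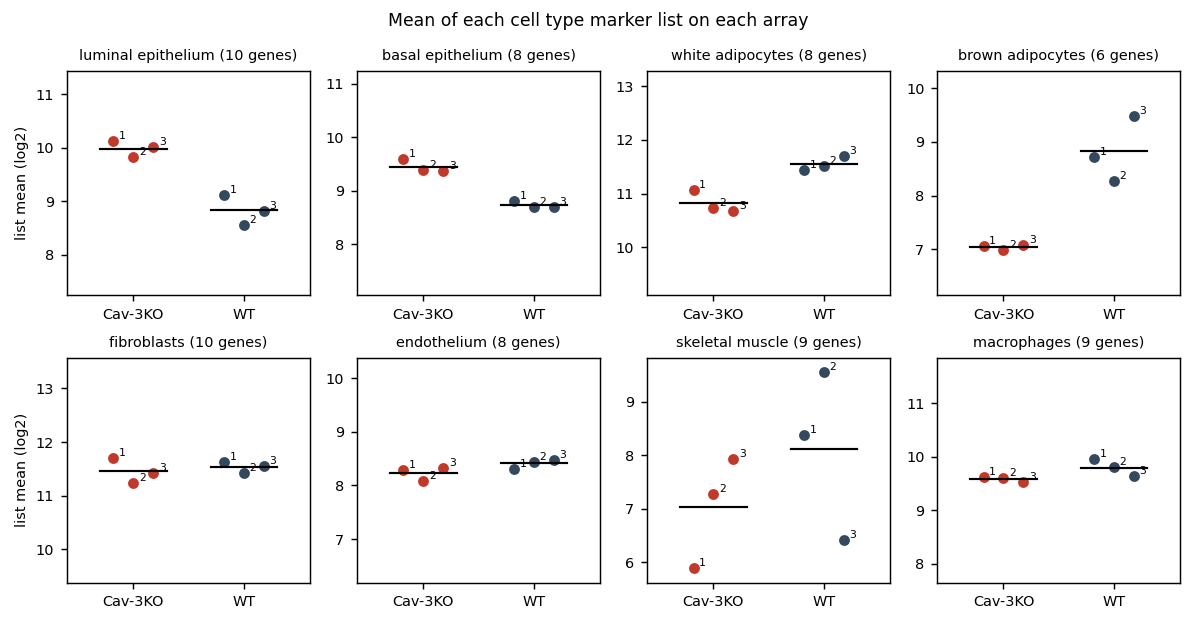
Mean log2 value of each cell type marker list (vertical axis) on each array, with 3 Cav-3KO glands in red, 3 WT glands in dark blue, replicate numbers beside the points and bars for group means. The luminal and basal lists lie higher and the white and brown adipocyte lists lower in all 3 Cav-3KO glands. The macrophage list also lies lower, by a narrow gap, while the fibroblast, endothelial and skeletal muscle lists overlap.

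The wider pathway was read from 7 lists, in which 80 of 83 genes had a probe set of their own. Of these, 10 were higher and 12 lower in Cav-3KO glands (limma, adjusted p), which is 27.5% against 16.2% of all genes, with a median log2 difference of −0.04 against −0.01. In each list the 4 genes with the smallest p are named. These counts stood beside the marker shifts above, whose part in them was not tested. At the threshold of 0.05, 9 of the 22 called genes passed under every other alternative that gave a value: Fgf13, Flrt2, Hs6st1, Hs6st2, Spint2, St14, Mst1r, Spint1 and Gab1.

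**Figure D4:**
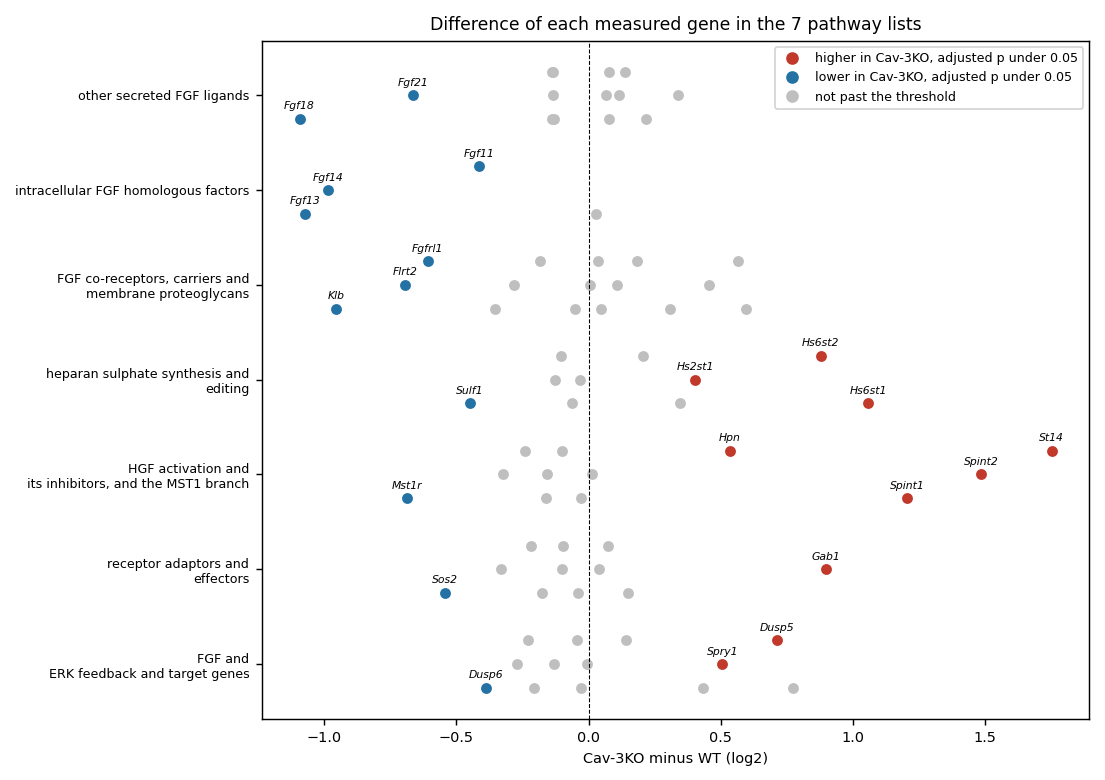
Log2 difference, Cav-3KO minus WT (horizontal axis), of each measured gene in the 7 pathway lists (rows), where points are offset vertically for legibility. Red points are higher and blue points lower in Cav-3KO at an adjusted p under 0.05, and grey points did not pass. St14, Spint2 and Spint1 lie farthest right, and Fgf18, Fgf13 and Fgf14 farthest left.

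In the list of HGF activation 4 of 12 genes were higher and 1 lower (41.7%, against 16.2% of all genes), with a median of −0.06. The list held the 3 largest rises of the 7 lists. St14, which encodes matriptase, a membrane protease that cuts the HGF precursor, read 9.63, 10.11 and 9.90 in Cav-3KO glands, against 8.46, 7.92 and 8.01 in WT glands. Those groups stood more than 1 log2 unit apart, and the difference was 1.75 ± 0.17 (SE), 3.37-fold (limma adjusted p = 0.00166). Both membrane inhibitors of such proteases rose too. Spint2 read 9.46, 9.60 and 9.47 in Cav-3KO glands, against 8.12, 7.97 and 7.99 in WT glands, a rise of 1.49 ± 0.09 (limma adjusted p = 0.00048), and both of its probe sets passed. Spint1 read 9.24, 9.75 and 9.83 in Cav-3KO glands, against 8.78, 8.18 and 8.24 in WT glands, a rise of 1.21 ± 0.20 (0.0107). Hpn, the protease hepsin, named after its values were seen, rose by 0.53 ± 0.12 (0.0240), a call lost without Cav-3KO 3 (0.0777), WT 2 (0.0629) or WT 3 (0.0662). Mst1r, the MET relative RON, fell to 6.74, 6.67 and 6.46 in Cav-3KO glands, against 7.21, 7.27 and 7.45 in WT glands (−0.69 ± 0.11, 0.00889). The secreted activators Hgfac, F12, Klkb1, Plau and Plat did not pass. The rises stood beside higher luminal markers, and the part of that shift was not tested.

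The inhibitor genes Spint1 (chr2:119237110-119237359, plus strand) and Spint2 (chr7:29281978-29282227, minus strand) rose together, and the 250 bases before each start are shown for that reason, from RefSeq build GRCm38.p6. Each held 3 GC boxes, in capitals, and neither held TATAAA or TTCNNNGAA. The promoter of Met, whose difference was 0.03, also held 3, and those of Fgfr3 (−0.24) held 3 and 2. Among all promoters 32.7% held at least 1 box. Whether the boxes have a part in the rises was not tested.
Spint1: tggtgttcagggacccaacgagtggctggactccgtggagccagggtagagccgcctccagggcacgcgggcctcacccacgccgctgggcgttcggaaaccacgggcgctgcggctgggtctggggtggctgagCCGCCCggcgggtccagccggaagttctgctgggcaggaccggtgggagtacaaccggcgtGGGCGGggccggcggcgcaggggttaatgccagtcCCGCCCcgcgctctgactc
Spint2: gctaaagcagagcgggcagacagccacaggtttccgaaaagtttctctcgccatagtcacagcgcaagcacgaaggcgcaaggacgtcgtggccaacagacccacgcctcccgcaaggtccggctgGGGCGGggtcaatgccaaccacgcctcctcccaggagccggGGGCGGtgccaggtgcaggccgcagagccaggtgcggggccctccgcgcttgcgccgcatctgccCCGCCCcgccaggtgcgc

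Heparan sulphate enzymes, which set how FGFs and HGF are held at the cell surface, had 3 of 10 genes higher and 1 lower. That is 40% called, against 16.2% of all genes. The rises stood beside higher luminal and basal markers, whose part was not tested. Hs6st1, which adds 6-O sulphate, read 8.57, 9.08 and 8.98 in Cav-3KO glands, against 7.89, 7.83 and 7.74 in WT glands, with no overlap. It rose by 1.06 ± 0.14 (SE), 2.08-fold (limma adjusted p = 0.00465). Its relative Hs6st2 read 6.36, 6.55 and 6.82 in Cav-3KO glands, against 5.85, 5.80 and 5.46 in WT glands (0.88 ± 0.15, 0.0110), on 1 of its 4 probe sets. The other Hs6st2 sets were dim, with means of 3.42, 2.98 and 2.35, and gave 0.18, 0.33 and 0.02. Hs2st1, which adds 2-O sulphate, rose by 0.40 ± 0.08 (0.0206) on its brightest set and passed on 2 of 4. Sulf1, an enzyme that removes 6-O sulphate outside the cell, read 7.49, 7.49 and 7.37 in Cav-3KO glands, against 7.96, 7.93 and 7.82 in WT glands (−0.45 ± 0.09, 0.0173). Hs2st1 lost its call without Cav-3KO 3 (0.0700), WT 1 (0.0583), WT 2 (0.0672) or WT 3 (0.0668), and Sulf1 without Cav-3KO 3 (0.0659), WT 1 (0.0626) or WT 2 (0.0565).

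Co-receptors and carriers had 3 of 16 genes lower and 0 higher, with a median of 0.02. The share called, 18.8%, was close to the 16.2% of all genes. Klb, beta-klotho, the co-receptor for hormone-like FGFs such as FGF21, read 8.93, 8.94 and 8.47 in Cav-3KO glands, against 9.63, 10.10 and 9.46 in WT glands. It fell by 0.96 ± 0.19 (SE), 1.94-fold (limma adjusted p = 0.0186), while its dim second set gave −0.22 ± 0.16 (0.448). Fgfrl1, an FGF receptor without a kinase domain, fell by 0.61 ± 0.13 (0.0229) and Flrt2, a membrane protein that can bind FGF receptors, by 0.69 ± 0.12 (0.0128). Fgfrl1 passed on 1 of 2 sets and Flrt2 on 2 of 3. Gpc1, a glypican that carries heparan sulphate, differed by 0.57 ± 0.19 (0.0927), and by 0.36 without WT 2. Klb lost its call without Cav-3KO 3 (0.0632), with averaged probe sets (0.0690) and with the muscle covariate (0.0534), and Fgfrl1 without Cav-3KO 3 (0.0844), WT 2 (0.0657) or WT 3 (0.0708). The Klb fall stood beside lower white adipocyte markers, whose part was not tested.

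Of the 14 other secreted ligands, 2 were lower and 0 higher, with a median of −0.03. That is 14.3%, close to the 16.2% of all genes. Fgf18, a ligand known from bone and lung development, read 5.78, 5.31 and 5.08 in Cav-3KO glands, against 6.17, 6.84 and 6.44 in WT glands, without overlap. The fall of 1.09 ± 0.22 (SE), 2.13-fold (limma adjusted p = 0.0183), lost its call without Cav-3KO 3 (0.0671), WT 2 (0.0511) or WT 3 (0.0592). Fgf21, a metabolic hormone of the family, read 4.15, 3.88 and 3.88 in Cav-3KO glands, against 4.33, 4.97 and 4.59 in WT glands (−0.67 ± 0.17, 0.0400). All 3 Cav-3KO values and those of WT 1 and WT 3 lay within the range of the 12 dim Y-linked sets, 1.90 to 4.61. Of those sets only that of Zfy2 came up to Fgf21 values. The filter on dim probe sets removed Fgf21. Its call was lost without Cav-3KO 2 (0.0788), Cav-3KO 3 (0.131), WT 2 (0.0832) or WT 3 (0.103), with array weights (0.0528) and with the muscle covariate (0.0956). Fgf17 and Fgf6 differed by 0.34 ± 0.12 (0.114) and 0.22 ± 0.12 (0.292), and all their values lay within that range. Fgf17 passed with the muscle covariate (0.0431), while without WT 3 it differed by 0.22 and Fgf6 by 0.34. Without WT 2 Fgf6 differed by 0.15.

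The 4 FGF homologous factors stay inside cells and bind sodium channels rather than FGF receptors, and 3 of them were lower. That is 75% of a short list, against 16.2% of all genes called. Fgf13 read 7.96, 7.48 and 7.75 in Cav-3KO glands, against 8.72, 8.72 and 8.97 in WT glands, with no overlap. It fell by 1.07 ± 0.14 (SE), 2.11-fold (limma adjusted p = 0.00430), while its dim second set gave −0.14 (0.422). Fgf14 fell by 0.98 ± 0.19 (0.0163) on 1 of its 4 sets and Fgf11 by 0.41 ± 0.11 (0.0467) on 1 of 2. With each gene's sets averaged, these 2 did not pass (0.151 and 0.145). Fgf14 also lost its call without Cav-3KO 3 (0.0659), and Fgf11 without Cav-3KO 2 (0.0859), Cav-3KO 3 (0.142), WT 1 (0.109), WT 2 (0.111) or WT 3 (0.134), by cyclic loess (0.0517), by median centring (0.05002) and with the trended prior (0.0508). Fgf12 differed by 0.03 ± 0.12 (0.914).

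Inside the cell, 1 of 11 adaptor and effector genes was higher and 1 lower, or 18.2%, close to the 16.2% of all genes. Gab1, the docking protein of MET, read 10.29, 9.92 and 10.31 in Cav-3KO glands, against 9.22, 9.25 and 9.36 in WT glands. It rose by 0.90 ± 0.12 (SE), 1.86-fold (limma adjusted p = 0.00535), and all 3 of its probe sets passed. Sos2, an exchange factor that activates RAS, fell by 0.54 ± 0.14 (0.0418), a call lost without Cav-3KO 3 (0.0693), WT 1 (0.0903), WT 2 (0.110) or WT 3 (0.125) and with the muscle covariate (0.0529). The phosphatase gene Ptpn11 and the phospholipase gene Plcg1 differed by −0.33 ± 0.11 (0.0823) and −0.18 ± 0.09 (0.258). Of the 3 Ptpn11 sets, 1 dimmer set passed (−0.45 ± 0.12, 0.0469), while the dimmest gave 0.03 ± 0.11 (0.895).

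The feedback and target genes of FGF and ERK signalling moved in different directions, 2 of 13 higher and 1 lower, with a median of −0.03. The share called was 23.1%, against 16.2% of all genes. Spry1, a Sprouty inhibitor of receptor signalling, read 8.92, 8.62 and 8.73 in Cav-3KO glands, against 8.31, 8.17 and 8.27 in WT glands (0.51 ± 0.10 SE, limma adjusted p = 0.0205). Dusp5, the ERK phosphatase of the nucleus, read 7.81, 7.95 and 7.41 in Cav-3KO glands, against 7.20, 6.88 and 6.94 in WT glands (0.71 ± 0.16, 0.0242). Dusp6, the ERK phosphatase of the cytoplasm, fell to 8.86, 8.91 and 8.62 in Cav-3KO glands, against 9.15, 9.26 and 9.15 in WT glands (−0.39 ± 0.10, 0.0488). None of the 3 calls held throughout. Spry1 lost it without Cav-3KO 3 (0.0657), WT 1 (0.0510), WT 2 (0.0681) or WT 3 (0.0645), and Dusp5 without Cav-3KO 1 (0.0663), WT 2 (0.0789) or WT 3 (0.0840). Dusp6 lost it without Cav-3KO 1 (0.0769), Cav-3KO 3 (0.135), WT 1 (0.106), WT 2 (0.139) or WT 3 (0.115), by cyclic loess (0.0505), median centring (0.0538), the trended prior (0.0521) and without shared-transcript probe sets (0.0508). With the muscle covariate all 3 missed the threshold (0.0554 for Spry1, 0.0666 for Dusp5 and 0.0947 for Dusp6). Spred3 differed by −0.27 ± 0.10 (0.135).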

How the data were processed

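Biotin-labelled RNA of 6 glands was read on single-channel Affymetrix mouse arrays. The deposited values are log2 intensities that the authors made with RMA, per the submitters' processing notes; its version is not given in the sources used here. RMA equalizes the distributions of the arrays and compresses differences of dim probe sets. Sample titles gave the groups and replicate numbers.

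Of 45101 probe sets, 64 controls were left out and 45037 were tested without a filter. The platform annotation gave 34945 sets 1 gene symbol, updated through Entrez identifiers with a RefSeq table of GRCm38.p6 (204 had no match). Another 932 sets had several symbols and 9160 none, and these were not named. Cav-3KO was compared with WT by limma's lmFit and eBayes (version 3.58.1, R 4.3.3; two-sided, genotype alone in the model), with Benjamini-Hochberg adjustment over all tested sets. The fit was tested on simulated data with 50 sets changed at each size. It called 24% of changes of 0.5 log2 units, 64% of 1 and 94% of 2, with 5 false calls. Far more sets were called in the real data, so these shares need not carry over. Figures were drawn with matplotlib 3.10.9.

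Members and lists were chosen with earlier results of these data known. Genes named are the members, the 4 genes of each pathway list with the smallest p, Cav3, and the 3 nearest profiles to each of 2 members. Hpn, the other HGF activators and the marker genes were named outside that rule, after their values were seen. Ndst1, Frs2 and Etv1 had no probe set annotated to them alone. Alternatives were other normalizations, a filter on dim sets, another prior, array weights, each array left out, the replicate block, other choices of probe set, a muscle covariate and other thresholds.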

Additional observations from a re-analysis of the deposited data

How the results depend on the processing

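Fgf10 and Fgfr1 stayed lower by sign under every alternative that gave a value, but neither call held throughout. When 1 array was left out, the difference ranged from −0.56 to −0.42 for Fgf10, −0.81 to −0.53 for Fgfr1, −0.13 to 0.0060 for Fgfr4 and −0.084 to 0.17 for Met, and the number of lower members from 0 to 2. That number was 1 with the filter on dim probe sets, which removed Fgf10, Fgf2, Fgfr4 and Hgf, 1 with the muscle covariate (Fgf10 −0.50, adjusted p = 0.0539) and 0 at a threshold of 0.01. The Fgfr4 difference became 0.065 without shared-transcript probe sets and 0.059 with averaged sets, and that of Met −0.0079 with array weights. Fgf12 turned to −0.15 without shared-transcript sets and ranged from −0.075 to 0.097 with 1 array left out. Apart from sets chosen or averaged differently, the cause was not tested.

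Deviations of same-numbered glands had correlations of −0.05, 0.19 and −0.02 for numbers 1, 2 and 3. The number 2 glands correlated best with each other. Those of numbers 1 and 3 correlated best with another number, up to 0.26 for Cav-3KO 1 with WT 3. With the replicate block, Fgf2 passed (−0.54, adjusted p = 0.0344), 3 members were lower and 0 higher, Fgf21, Fgf11, Sos2 and Dusp6 lost their calls (0.0604, 0.0695, 0.0533 and 0.0590), and the pathway lists held 11 higher and 8 lower genes.

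Leaving out 1 array gave 629 to 1718 higher and 606 to 1463 lower genes on the whole array, 2218 to 5987 probe sets, and 6 to 13 higher and 3 to 11 lower pathway genes. At a threshold of 0.01 these were 446 and 421 genes, 1523 probe sets, and 4 and 2 pathway genes (St14, Spint2, Hs6st1 and Gab1, and Fgf13 and Mst1r); at 0.10 there were 2152 higher genes and 8724 probe sets. Over all alternatives, 0 members were higher each time. Signal near that of Y-linked sets limits Cav3, Fgf2, Fgf10, Fgf21, Fgf17, Fgf6 and Fgf12 among the genes named with values.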
